A study of Homo sapiens with 2 samples.

Results

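The SPARC family of matricellular genes was followed across cells and time in astrocyte progenitor cultures made from human embryonic stem cells. Its 8 members, SPARC, SPARCL1, SMOC1, SMOC2, SPOCK1, SPOCK2, SPOCK3 and FSTL1, were chosen by name as relatives of 1 protein family, by a rule that uses no measured value, and each matched 1 of the 36601 genes listed in both libraries. The cultures came from H7, an established human embryonic stem cell line, and had been given LIF, BMP4 and FGF1 in that order. There was 1 library from day 160 and 1 from day 220, each a pool of 3 separate differentiations that no label tells apart, released with Accutase and run on the 10x Genomics Chromium 3′ kit, version 3.1. The study profiled progenitor subtypes at both ages, all cells were from this 1 line, and there was no untreated control. The protocol text attached to the later library names the earlier day, and the deposited file names of the libraries differ in a prefix whose meaning the sources used here do not state, so the age of the culture cannot be told apart from any other difference between these libraries.

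Matricellular proteins are secreted into the space around cells, where they bind collagens, growth factors and proteases and tune how cells respond to the matrix rather than holding it together. The members share a follistatin-like domain and, in most of them, an extracellular calcium-binding domain. In the nervous system SPARCL1 (hevin) is known as an astrocyte protein that promotes the formation of excitatory synapses and SPARC as its antagonist, the SMOC proteins are known as antagonists of bone morphogenetic protein (BMP) signalling, the SPOCK genes encode the testican proteoglycans of brain matrix, and FSTL1 encodes a secreted follistatin-like glycoprotein.

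The library of day 160 held 9389 cells with 115158004 UMIs (a UMI stands for 1 captured RNA molecule) and that of day 220 held 518 cells with 25487554 UMIs, at medians of 10041 and 46079.5 UMIs per cell. Mitochondrially encoded genes took 11.7% and 8.78% of UMIs. With 1 library per day there was no replicate check and no test. All intervals in parentheses are exact 95% intervals for counting error alone, Poisson for levels, conditional binomial for ratios and Clopper-Pearson for shares. None covers the spread between cultures, and those for levels and ratios also leave out the spread between cells. Intervals that lie apart are therefore no test of a difference. Of the listed astrocyte markers, GFAP had 551 and 135 CPM (UMIs of a gene scaled to 1000000 UMIs per library), while AQP4 had 5.08 and 2.12 and ALDH1L1 2.14 and 0.314, so 2 defining markers of mature astrocytes were low at both days. S100B had 172 and 570 CPM, HEPACAM 2.53 and 11.3 and GJA1 131 and 218, and of the 10 of 14 astrocyte markers that reached 10 CPM, 2 were at least 2-fold higher and 2 lower at day 220. No marker of endothelial cells or microglia reached 10 CPM. The libraries shared 2 of their kept cell barcodes.

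The promoter sequences of SPARCL1 and SMOC1 are shown because these members were found together in the same cell least often, relative to their own shares, at both days among the 4 members with at least 10 CPM. They are RefSeq sequences on GRCh38.p14, in which 7 of the 8 members had an entry, read 5′ to 3′ on the strand of the gene. The first is the part of the 250 bases before the SPARCL1 start that lies in no annotated exon (chr4:87529505-87529626, minus strand), and the second is the 250 bases before the SMOC1 start (chr14:69879166-69879415, plus strand). Both lie inside the GENCODE span of their gene. In the SPARCL1 window the 128 bases nearest the start are annotated exon and are not shown. Capitals mark matches on either strand to 3 common promoter motifs. The core element that sets the start site was searched for as TATAAA. Its SPARCL1 match lies beyond those 128 bases, so it is not next to the start named here. The motif known for nuclear factor Y was searched for as CCAAT, and the motif known for SP1 as GGGCGG, whose matches in SMOC1 overlap by 1 base.
SPARCL1: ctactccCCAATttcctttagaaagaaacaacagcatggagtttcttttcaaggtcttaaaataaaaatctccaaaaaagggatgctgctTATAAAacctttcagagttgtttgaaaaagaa
SMOC1: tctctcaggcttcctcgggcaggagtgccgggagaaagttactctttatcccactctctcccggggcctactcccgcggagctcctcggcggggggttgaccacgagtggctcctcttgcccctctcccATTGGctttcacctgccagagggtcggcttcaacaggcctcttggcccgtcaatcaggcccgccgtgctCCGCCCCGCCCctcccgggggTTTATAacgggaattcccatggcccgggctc
Over the full 250 bases the SPARCL1 window was 38.8% G or C with 1 CpG and the SMOC1 window was 65.6% with 17, where the median of 35116 RefSeq windows of that length was 58% and 11. Counting either strand, both windows hold TATAAA, found in 10.7% of all such windows, and CCAAT, found in 32.0%, and SMOC1 alone of the pair holds GGGCGG, found in 42.6%. The matches of SPARCL1 are on the strand of the gene, and those of SMOC1 are all on the opposite strand. These matches describe the letters and do not show that a factor binds there.

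Between the libraries, SPARC, SPARCL1 and SMOC1 were higher at day 220, FSTL1 and SPOCK2 were nearly level, SPOCK1 was higher from a low base, SMOC2 was near 0 at the later day only, and SPOCK3 had 3 UMIs in each. SPARC (ENSG00000113140, chromosome 5, 151661096 to 151687165), the founding member and a collagen-binding protein, was at 436 CPM (432 to 440) on the earlier day and 683 CPM (673 to 694) on the later, a ratio of 1.57 (1.54 to 1.59). SPARCL1 (ENSG00000152583, chromosome 4, 87473335 to 87531061) had 75.6 CPM (74.0 to 77.2) and 181 CPM (175 to 186), a ratio of 2.39 (2.31 to 2.48). SMOC1 (ENSG00000198732, chromosome 14, 69854131 to 70032366) had 76.7 CPM (75.1 to 78.3) and 310 CPM (303 to 317), a ratio of 4.04 (3.92 to 4.16). For each of these 3 genes the intervals of the libraries lay apart.

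FSTL1 (ENSG00000163430, chromosome 3, 120392293 to 120451253) had 61.0 CPM (59.6 to 62.4) and 66.3 CPM (63.1 to 69.5), a ratio of 1.09 (1.03 to 1.15). SPOCK1 (ENSG00000152377, chromosome 5, 136975298 to 137598379), which encodes testican-1, had 2.46 CPM (2.18 to 2.76) and 7.06 CPM (6.07 to 8.17) on 283 and 180 UMIs. SPOCK2 (ENSG00000107742, chromosome 10, 72059035 to 72089032), which encodes testican-2, had 4.51 CPM (4.13 to 4.91) and 4.90 CPM (4.08 to 5.84), and its ratio of 1.09 had an interval (0.888 to 1.33) that spans 1. The low members thus split, with SPOCK1 2.87-fold higher (2.37 to 3.48) and SPOCK2 not distinguishable between the libraries at this depth.

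SMOC2 (ENSG00000112562, chromosome 6, 168441151 to 168673445), the closest relative of SMOC1, went the other way. Its 289 UMIs of day 160 (2.51 CPM, 2.23 to 2.82) stood against 2 UMIs at day 220 (0.0785 CPM, 0.0095 to 0.283), which is 32.0-fold lower (8.77 to 265). SPOCK3 (ENSG00000196104, chromosome 4, 166733384 to 167234796), which encodes testican-3, had 3 UMIs in each library, at the limit of what was counted, so no fold is given. The SMOC members thus differed in direction, with SMOC1 higher and SMOC2 lower at day 220.

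**Figure D1:**
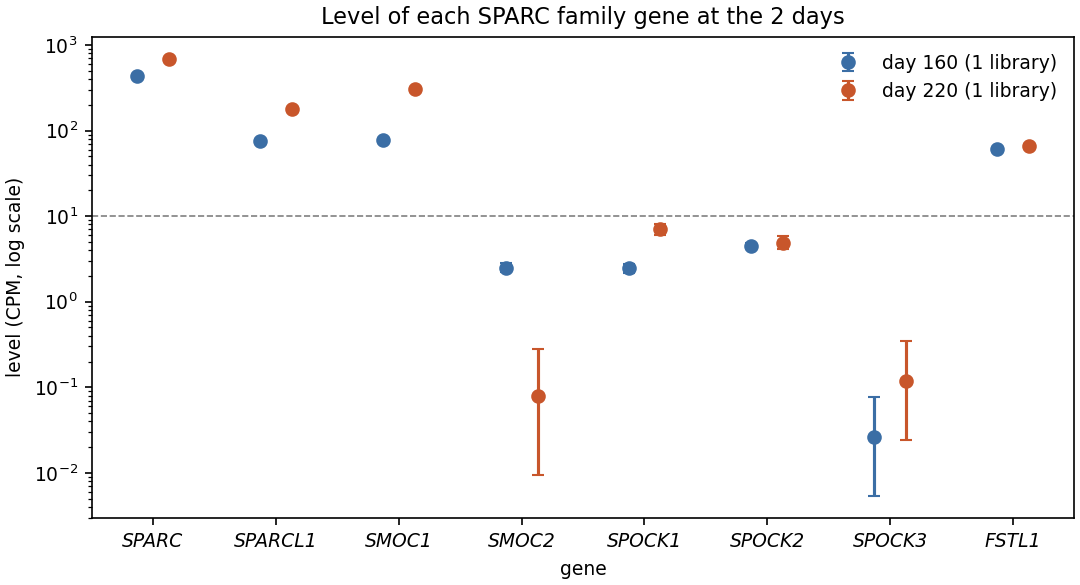
Level of each member in CPM on a log scale at day 160 (blue) and day 220 (orange), 1 library each, with exact 95% Poisson intervals and a dashed line at 10 CPM. SPARC, SPARCL1 and SMOC1 lie higher at day 220, and SMOC2 lies at 2.51 and 0.0785 CPM.

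Genes were counted where they had 10 CPM or more in at least 1 library, a minimum that 4 of the 8 members passed, namely SPARC, SPARCL1, SMOC1 and FSTL1. On the log2 scale with 1 CPM added to each level, 2 of these 4 were at least 2-fold higher at day 220, SPARCL1 at 1.25 and SMOC1 at 2.0, beside 23.0% of all 10167 counted genes. None of the 4 was at least 2-fold lower, beside 5.09% of all. SPARC and FSTL1 had log2 ratios of 0.65 and 0.12, and the median of all counted genes was 0.14.

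Intron length moved with these ratios. SMOC1 has 173867 annotated intron bases, and 1268 counted genes within 1.5-fold of that length had a median log2 ratio of 1.28, with 62.3% of them at least 2-fold higher. For SPARCL1 (54250 intron bases) the median of like genes was 0.34, and for SPARC (21239 bases) it was -0.07. SPARC, SPARCL1 and SMOC1 lay 0.72, 0.91 and 0.72 above the median of their like genes, so the order of the 3 by ratio was not kept on this scale.

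When each ratio was centred on genes of like intron length, 0 of the 4 members passed 2-fold in either direction, beside 10.5% of all genes higher and 7.49% lower. SPOCK1, with 616860 intron bases, turned from 1.22 to -1.36, where genes within 1.5-fold of its length had a median of 2.79. SMOC2, with 228263 intron bases, had a log2 ratio of -1.70 where its like genes had a median of 1.59. Both members were under 10 CPM at both days, while their like genes had to reach it in 1 library. A gene could do so by its day 220 level alone, and 90.5% of the genes like SPOCK1 were at least 2-fold higher. The part of this minimum in the turn of SPOCK1 was not tested. FSTL1 was at -0.21 after centring. The sources used here do not say whether reads in introns were counted, and the part of intron reads in the ratios was not tested.

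**Figure D2:**
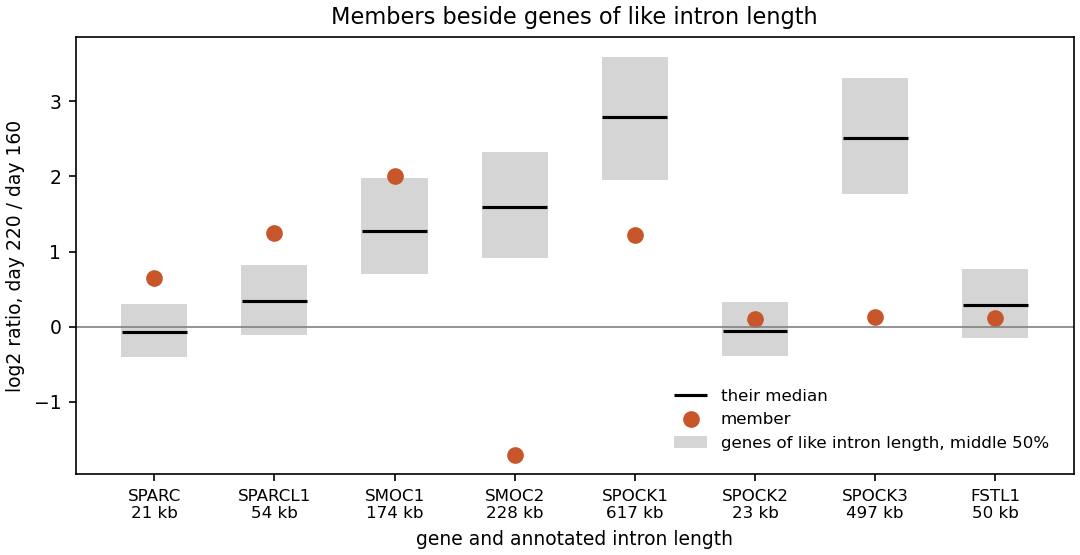
Log2 ratio of day 220 over day 160 for each member (points), beside the middle 50% (grey bars) and the median (black lines) of counted genes within 1.5-fold of its annotated intron length, printed under each name in kilobases. SPARC and SPARCL1 lie above the bars, SMOC1 at the upper edge of its bar, and SMOC2, SPOCK1 and SPOCK3 below theirs. SMOC2, SPOCK1 and SPOCK3 were under 10 CPM in both libraries, while the genes in the bars reached it. SPOCK3 had 3 UMIs in each library, so the added 1 CPM holds its point near 0 and its place is not a result.

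The members were then followed across cell groups. Each library was clustered alone with the 8 members left out of the genes used, so that no member could define the groups it is described over. Day 160 gave 11 clusters and day 220 gave 7. At both days 1 cluster was led by HLA class II genes, 2719 cells led by HLA-DRA at day 160 and 108 cells led by HLA-DPA1 at day 220. It carried GFAP, S100B, SLC1A3 and CLU of the astrocyte markers at least 2-fold above the other cells, but also 7 of 14 radial glia markers at day 160 and 6 at day 220, against 6 and 4 astrocyte markers, so it is called here by its leading genes and given no cell type. Clusters with DLX genes and other neuronal precursor markers were called neuronal precursor-like, those with genes of cell division cycling-like, and 1 cluster per day with ACTA2, TAGLN, COL1A1 and CNN1 contractile mesenchymal-like. In that last group 9 of 14 contractile mesenchymal markers at day 160 and 8 of 14 at day 220 were at least 2-fold above the other cells. Each cluster is named below by 1 of its 10 leading genes.

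SPARC was highest in the contractile mesenchymal-like cluster, next highest in the HLA class II cluster, and lowest in cells with neuronal features. The contractile cluster was at 922 CPM (905 to 938) on the earlier day and 1543 CPM (1506 to 1581) on the later, and the HLA class II cluster at 657 CPM (649 to 665) and 847 CPM (825 to 869). At day 160 the lowest level in a cluster of 50 cells or more was 54.6 CPM (50.2 to 59.3), in the CRABP1 cluster. At day 220 the SCGN cluster of 40 cells had 22.5 CPM (13.5 to 35.1). At each day the intervals of the highest and lowest SPARC cluster lay far apart.

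SPARCL1 was concentrated in the HLA class II cluster. That cluster held 70.3% of all SPARCL1 UMIs at day 160 and 74.7% at day 220, while holding 35.0% and 26.5% of all UMIs. Its SPARCL1 level was 152 CPM (148 to 156) and 509 CPM (492 to 527). The contractile cluster had 100 CPM (94.7 to 106) and 49.2 CPM (42.7 to 56.3), and at day 220 the OLIG1 cluster, led by the oligodendrocyte lineage gene OLIG1 and the proteoglycan gene BCAN, had 164 CPM (153 to 175). In the CALB2 and CRABP1 precursor clusters of day 160 SPARCL1 had 3.18 and 2.24 CPM, and in the NPY precursor cluster of day 220 it had 2.50 CPM (1.33 to 4.27).

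SMOC1 was placed largely the other way round. At day 160 it was highest, at 352 CPM (340 to 364), in the CALB2 cluster, whose leading genes include SCGN, DCX, DLX5 and GAD2 of inhibitory neuron precursors, and it was 4.07 CPM (3.47 to 4.74) in the HLA class II cluster and 7.83 CPM (6.38 to 9.51) in the contractile cluster. The other precursor clusters had 130 to 169 CPM and the cycling clusters 62.1 to 103 CPM. At day 220 the OLIG1 cluster was highest with 670 CPM (648 to 692), followed by the CHRNA1 cluster with 485 CPM (448 to 525) and the NPY cluster with 398 CPM (381 to 416). The HLA class II cluster was lowest with 39.97 CPM (35.3 to 45.0), 0.0982 times the level of all other cells together, against 0.0352 times at day 160.

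FSTL1 followed the placement of SPARC over a narrower range. The contractile cluster had 116 CPM (110 to 122) and 108 CPM (97.9 to 118), and the HLA class II cluster 86.0 CPM (83.1 to 88.9) and 94.3 CPM (87.1 to 102). These intervals overlap at day 220. The CALB2 cluster of day 160 had 20.3 CPM (17.6 to 23.3), the lowest among clusters of 50 cells or more. SPARC and FSTL1 had UMIs in every cluster of both days, as did SPOCK1 and SPOCK2, on as few as 1 UMI in a cluster. SPARCL1 and SMOC1 had none only in the EOMES cluster of 25 cells at day 160.

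The members under 10 CPM were placed differently again. SPOCK1 had 60.1% of its day 160 UMIs in the contractile cluster, at 13.2 CPM (11.3 to 15.3), and its highest level, 74.8 CPM (39.8 to 128), on 13 UMIs in a neuron-like cluster of 25 cells led by SSTR2, EOMES and NEUROD2, in which 11 of 12 neuron markers were at least 2-fold above the other cells. At day 220 it was highest in the SCGN cluster with 24.9 CPM (15.4 to 38.0), then in the NPY cluster with 14.0 CPM (11 to 17.6) and the contractile cluster with 12.9 CPM (9.75 to 16.9), and these 3 intervals overlap. SPOCK2 ranged from 1.52 to 10.9 CPM over the day 160 clusters of 50 cells or more, highest in the GADD45G precursor cluster at 10.9 CPM (8.57 to 13.8). SMOC2 at day 160 had 58.5% of its UMIs in the HLA class II cluster at 4.20 CPM (3.59 to 4.88), and its level in the CRABP1 cluster, 4.86 CPM (3.61 to 6.41), was not distinguishable from that. Both SMOC2 UMIs of day 220 were in the HLA class II cluster, and the 6 SPOCK3 UMIs of the libraries lay in 6 different clusters.

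**Figure D3:**
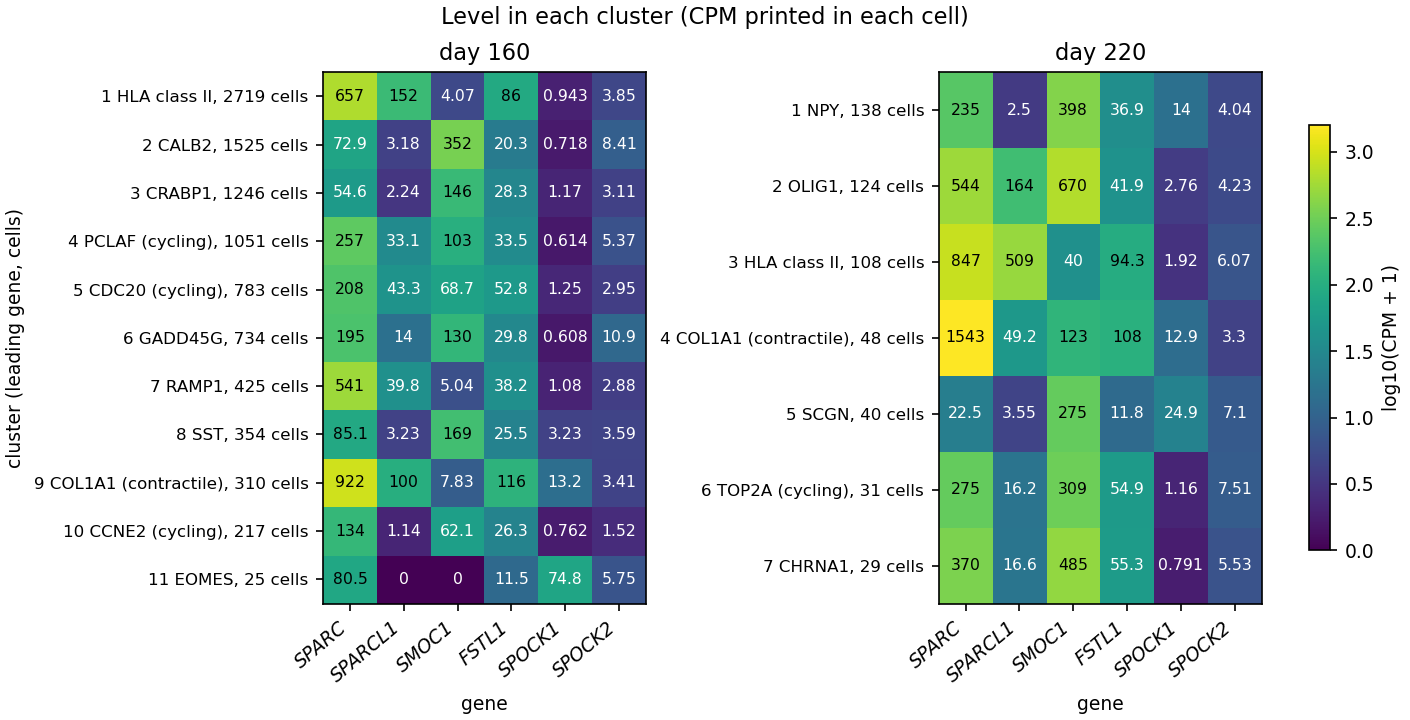
Level of 6 members in each cluster of day 160 (left) and day 220 (right), with the CPM printed in each field colour on a log10(CPM + 1) scale, and rows named by a leading gene and the number of cells. SPARC and SPARCL1 are bright and SMOC1 dark in the HLA class II row of each day, and the CALB2 row of day 160 shows the reverse.

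Cells with a UMI of each member were then counted at equal depth. Each cell was thinned to 5000 UMIs, which left 8699 cells at day 160 and 488 at day 220 after 690 and 30 shallower cells were set aside. SPARC had a UMI in 58.5% of thinned cells (57.5 to 59.6) on the earlier day and 73.2% (69.0 to 77.0) on the later, SPARCL1 in 13.3% (12.6 to 14.1) and 23.8% (20.1 to 27.8), and SMOC1 in 27.4% (26.5 to 28.4) and 52.9% (48.3 to 57.4). Before thinning these shares were 66.6% and 89.6%, 20.5% and 47.7%, and 36.4% and 71.2%. FSTL1 was found in 19.3% of thinned cells at both days (18.5 to 20.2 and 15.9 to 23.1), or 36.8% and 66.2% before thinning, so the gap in its unthinned shares was not seen at equal depth.

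SMOC2 had a UMI in 1.38% of the thinned day 160 cells (1.14 to 1.65) but in 0 of 488 day 220 cells. A count of 0 there leaves room for 3 cells, a share of 0.615% (the exact upper bound is 0.753%), and before thinning the shares were 2.15% and 0.386%. For SPOCK1 the thinned shares were 0.529% (0.387 to 0.705) and 2.66% (1.43 to 4.51), against 1.53% and 13.1% of cells at full depth. For SPOCK2 they were 2.43% (2.11 to 2.77) and 2.25% (1.13 to 3.997), against 5.02% and 16.6% at full depth. The SPOCK2 intervals overlap once depth is equal. The most members found in 1 thinned cell was 4, and 18.1% of thinned cells at day 160 and 6.15% at day 220 had none.

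RNA free in the suspension can place UMIs in cells that do not make a transcript, so shares were set beside those of a cell group at the low end. SMOC1 was found in 1.53% of thinned cells of the day 160 HLA class II cluster (41 of 2679) and in 77.4% of the CALB2 cluster (882 of 1140). The full median depths of these clusters were 13448 and 5795 UMIs, and the unthinned shares 3.24% and 80.6%. SPARCL1 was found in 32.0% of thinned cells of the HLA class II cluster (856 of 2679) and in 1.75% of the CALB2 cluster (20 of 1140). The low shares of these genes were thus in opposite clusters of 1 library. SPARC was found in 93.6% of the HLA class II cluster and in 27.98% of the CALB2 cluster, and FSTL1 in 31.0% and 9.47%. The order of clusters by share was not always that by CPM. SPARCL1 was found in 34.3% of thinned cells of the day 160 contractile cluster, beside 32.0% in the HLA class II cluster, and SMOC1 at day 220 in 82.8% of the CHRNA1 cluster, 74.4% of the NPY cluster and 70.6% of the OLIG1 cluster. The part of free RNA in the low values was not tested.

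SPARCL1 UMIs were also concentrated within cells. Before thinning, the 939 cells with most SPARCL1 held 85.1% of its UMIs at day 160, against 53.4% for SPARC, 53.7% for SMOC1 and 56.6% for FSTL1 in the 939 cells richest in each. The richest cell had 106 UMIs of SPARCL1, 198 of SPARC and 17 of SMOC1. At day 220 the richest 52 cells held 68.6% of SPARCL1, 48.8% of SPARC, 42.9% of SMOC1 and 47.2% of FSTL1 UMIs. SPARCL1 was the most unevenly spread of the 4 members at both days on this measure, which also moves with a gene's level and the depth of cells.

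Most cells with SPARCL1 also had SPARC, and few had SMOC1 at day 160. Among thinned cells of day 160 with SPARCL1, 89.8% also had SPARC, against 53.7% of the cells without SPARCL1, and at day 220 these were 88.8% and 68.3%. Both genes were found in 11.98% of thinned cells at day 160, where the product of their shares is 7.80%, and in 21.1% at day 220, where it is 17.4%. Both SPARCL1 and SMOC1 were found in 53 of 8699 cells at day 160 (0.609%, product 3.66%) and in 32 of 488 at day 220 (6.56%, product 12.6%). Spearman's rho across thinned cells was 0.33 and 0.26 for SPARC with SPARCL1, -0.20 and -0.25 for SPARCL1 with SMOC1, and -0.37 and -0.24 for SPARC with SMOC1, a description over cells that share a library and its free RNA. The members form 28 pairs, and at day 220 those with SMOC2 or SPOCK3 had no rho, as no thinned cell had a UMI of either.

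The cells with both SPARCL1 and SMOC1 were spread over 9 of the 11 clusters at day 160, with 15 of 53 in the HLA class II cluster and 14 in the CALB2 cluster. Among the 583 barcodes left out as doublets, 20.8% had a UMI of both before thinning, against 1.86% of kept cells, at median depths of 21860 and 10041 UMIs. At day 220, 23 of the 32 cells were in the OLIG1 cluster, where SPARCL1 was found in 36.7% and SMOC1 in 70.6% of 109 thinned cells and the pair in 21.1%, beside a product of 25.9%. The OLIG1 cluster thus had the highest share of cells with both, and whether undetected doublets contribute there was not tested.

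Within cell groups the pairing was near 0 in some and not in others. Inside the HLA class II cluster the rho of SPARC with SPARCL1 was 0.11 over 2679 cells at day 160 and 0.01 over 105 at day 220. Inside the neuronal precursor-like clusters it was 0.02 and 0.09, and that of SPARC with SMOC1 was -0.03 and 0.00. At day 220 SPARC with SMOC1 was -0.16 in the HLA class II cluster, -0.24 over 47 contractile cells and -0.25 over 28 cycling-like cells, and SPARCL1 with SMOC1 was -0.21 inside the OLIG1 cluster. In the cycling-like clusters of day 160, SPARC with SPARCL1 reached 0.20 and SPARC with SMOC1 -0.19 over 2006 cells. Across the 10 day 160 clusters of 50 cells or more, Pearson's r of log2(CPM + 10) was 0.92 for SPARC with SPARCL1, 0.91 for SPARCL1 with FSTL1, -0.90 for SPARC with SMOC1 and -0.80 for SMOC1 with FSTL1, over clusters that share a library and differ in depth.

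**Figure D4:**
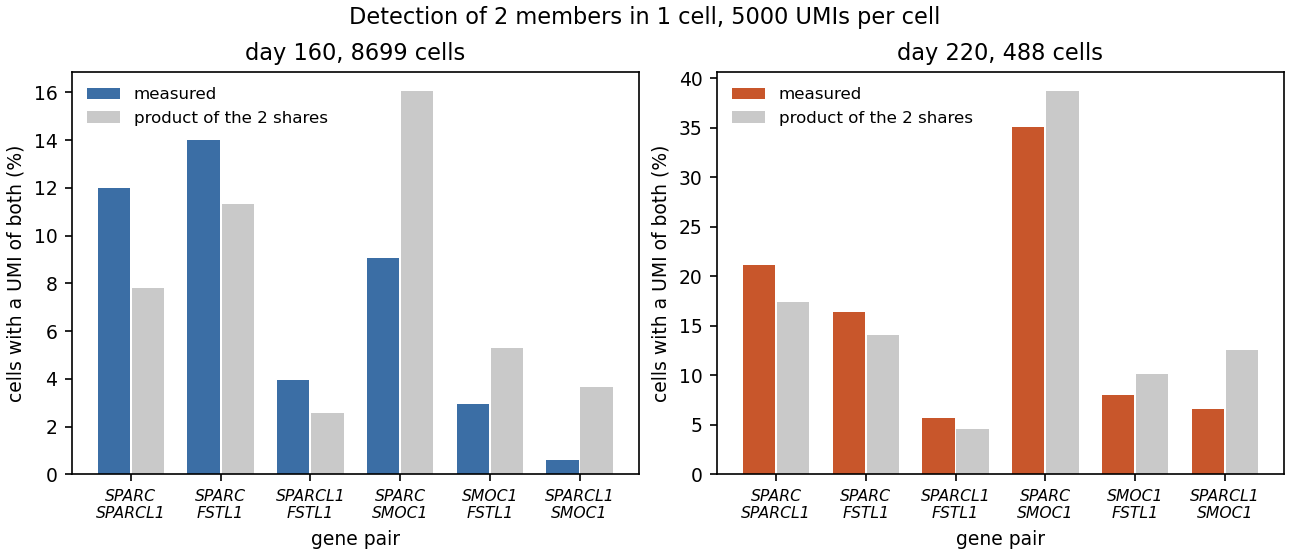
Share of thinned cells (5000 UMIs each) with a UMI of both genes of a pair, measured (coloured) and as the product of the separate shares (grey), at day 160 (left) and day 220 (right), on different vertical scales. Pairs of SPARC, SPARCL1 and FSTL1 lie above their product, and each pair with SMOC1 lies below it. As a ratio to the product, SPARCL1 with SMOC1 is lowest at both days.

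The genes most like each member were named by the same measures, over 5638 and 6869 genes found in at least 10% of thinned cells and 6032 genes across clusters. For SPARC these were VIM, the intermediate filament gene of glia and mesenchyme, GPM6B and CLU at day 160 (rho 0.65, 0.64 and 0.63) and FTH1, VIM and CD63 at day 220 (0.63, 0.63 and 0.55). For SPARCL1 they were GPM6B, VIM and CLU (0.38, 0.35 and 0.35) and then CLU, the endothelin receptor gene EDNRB and ANOS1 (0.52, 0.51 and 0.47). For SMOC1 they were the interneuron transcription factor gene DLX5, the migration gene DCX and GAD2, which encodes an enzyme of GABA synthesis (0.57, 0.51 and 0.50), and at day 220 SNTG1, NKAIN3 and SOX2-OT (0.43, 0.38 and 0.38). FSTL1 had no close partner, with GPM6B, CLU and CDO1 at 0.22 to 0.20 and VIM, LMCD1 and SPRY2 at 0.23 to 0.20.

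Across the 10 clusters, COL4A1, which encodes a basement membrane collagen, L3HYPDH and PRR5L were nearest to SPARC (r 0.99 each). ANXA7 and LIPG were near to SPARCL1 (0.98 each), GAD2, DHX30 and DLX5 to SMOC1 (0.99, 0.98 and 0.98), and ELOVL1, CHST3 and OAZ1 to FSTL1 (0.97, 0.97 and 0.96). The SMOC1 partners GAD2 and DLX5 thus came up over cells and over clusters of the 1 day 160 library, where both lead the CALB2 cluster, but not over cells of day 220. The lists of the other members changed with the measure.

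The groups present at both days were then compared within each group. Different clusters hold the neuronal precursor-like group at each day, the CALB2, CRABP1, GADD45G and SST clusters at day 160 and the NPY, SCGN and CHRNA1 clusters at day 220. Of these, the CALB2 cluster and the SCGN cluster have CALB2, SCGN, BCL11B and DCX in common among their leading genes. The cycling-like group was 3 clusters at day 160 and 1 at day 220. The HLA class II cluster made up 28.96% of cells at day 160 and 20.8% at day 220, the precursor-like group 41.1% and 39.96%, the cycling-like group 21.8% and 5.98%, and the contractile group 3.30% and 9.27%, so the makeup of the libraries differed along with the members' totals. At day 220 the OLIG1 cluster is in none of these groups. It held 23.9% of cells, 46.2% of SMOC1 UMIs and 19.3% of SPARCL1 UMIs. At day 160 the RAMP1 and EOMES clusters lie outside the groups.

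Within the HLA class II cluster SPARCL1 was 3.35-fold higher (3.21 to 3.50) at day 220, while in the contractile and cycling-like groups it was lower, at ratios of 0.492 (0.423 to 0.569) and 0.473 (0.313 to 0.688), and in precursor-like cells the ratio was 0.960 (0.652 to 1.38). In thinned cells SPARCL1 was found in 32.0% (30.2 to 33.8) and 61.9% (51.9 to 71.2) of the HLA class II cluster, and in 34.3% (28.7 to 40.2) and 19.1% (9.15 to 33.3) of the contractile cluster, where the intervals overlap. Genes of like intron length had medians of 0.33 in the HLA class II cluster and 0.26 in the contractile cluster, beside log2 ratios of SPARCL1 of 1.74 and -1.01. The difference between the groups was not tested, as each rests on 1 library per day.

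SMOC1 was higher at day 220 in all 4 groups compared, each taken as a whole, and most so where it was scarce at day 160. In the HLA class II cluster it went from 4.07 to 39.97 CPM, 9.82-fold (8.06 to 11.99), and in the contractile cluster from 7.83 to 123 CPM, 15.8-fold (12.7 to 19.7). In cycling-like cells it went from 84.9 to 309 CPM, 3.64-fold (3.31 to 4.005), and in precursor-like cells from 213 to 399 CPM, 1.87-fold (1.79 to 1.96). The precursor-like ratio pools unlike clusters and did not hold for the pair that shares leading genes. SMOC1 had 352 CPM (340 to 364) in the CALB2 cluster of day 160 and a lower 275 CPM (240 to 312) in the SCGN cluster of day 220. On the log2 scale the HLA class II, contractile and cycling-like values of 3.01, 3.82 and 1.85 lay above the medians of genes of like intron length, 1.21, 1.04 and 1.34, but the precursor-like value of 0.90 lay below its median of 1.45. In thinned cells the share with SMOC1 was 1.53% and 7.62% (3.35 to 14.5) in the HLA class II cluster and 3.97% and 31.9% (19.1 to 47.1) in the contractile cluster. In the contractile cluster the summed level of the 9 oligodendrocyte lineage markers was 199 CPM at day 160 and 1089 CPM at day 220, and in the HLA class II cluster 370 and 722 CPM. Over the whole libraries this sum was 400 and 944 CPM. The cells outside the day 220 contractile cluster had 915 CPM, and only 1 of the markers, PTGDS, was at least 2-fold above them in that cluster. The part of these markers in the SMOC1 values was not tested.

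SPARC was higher at day 220 in each group, by 1.29-fold (1.25 to 1.33) in the HLA class II cluster, 1.67-fold (1.62 to 1.73) in the contractile cluster, 1.22-fold (1.11 to 1.34) in cycling-like cells and 2.46-fold (2.31 to 2.61) in precursor-like cells. FSTL1 had ratios of 1.10 (1.01 to 1.19), 0.928 (0.834 to 1.03), 1.34 (1.08 to 1.66) and 1.45 (1.25 to 1.66) in the same order. The precursor-like ratio of SPARC also pools unlike clusters. SPARC had 72.9 CPM (67.6 to 78.5) in the CALB2 cluster of day 160. It was lower in the SCGN cluster of day 220, at 22.5 CPM (13.5 to 35.1) on 19 UMIs. SPOCK1 was 11.9-fold higher (7.92 to 18.4) in precursor-like cells, on 32 and 95 UMIs, and had a ratio of 0.983 (0.711 to 1.34) in the contractile cluster. For SPOCK1 in precursor-like cells the log2 ratio with 1 CPM added was 2.74, beside a median of 3.08 of counted genes of like intron length. Its day 160 level there was only 1.09 CPM, so the added 1 CPM shrinks this ratio. Whether it lies above or below that median therefore cannot be read. In the precursor-like group the summed neuronal precursor markers had 11475 CPM at day 160 and 5034 CPM at day 220, radial glia markers 3656 and 5886 CPM and contractile mesenchymal markers 153 and 324 CPM, and their part in the SPARC and SPOCK1 values was not tested. SMOC2 had 169 UMIs in the HLA class II cluster at day 160 and 2 at day 220, 14.2-fold lower (3.86 to 118).

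**Figure D5:**
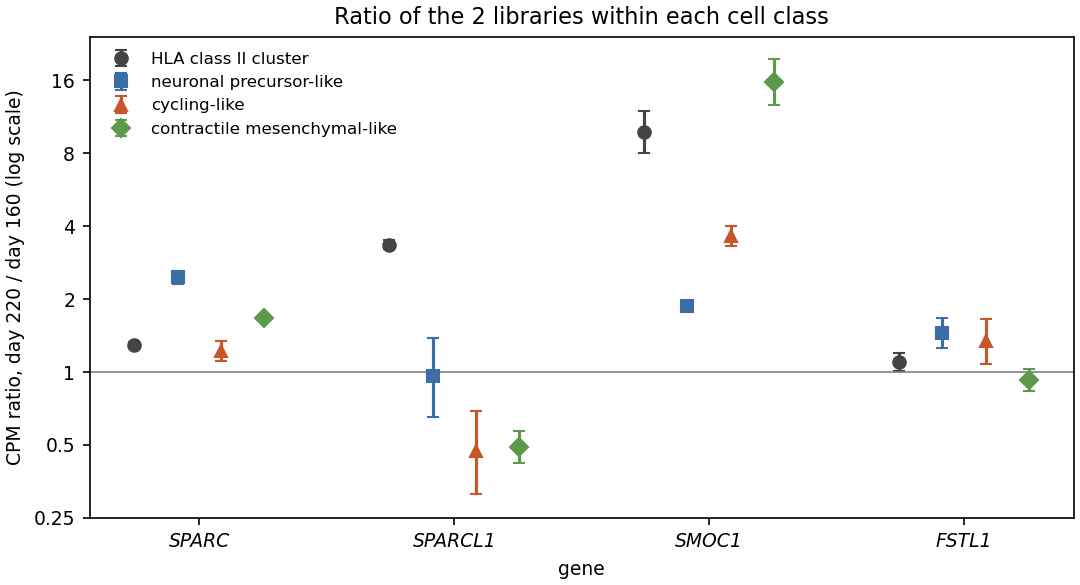
Ratio of CPM at day 220 over day 160 on a log scale for 4 members within each of 4 cell groups, 1 library per day, with exact 95% conditional binomial intervals. SPARCL1 lies above 1 in the HLA class II cluster and below 1 in the contractile mesenchymal-like and cycling-like groups, and SMOC1 lies above 1 in each.

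Depth and mitochondrial share differed along with some of these values. Among day 160 cells of at least 10000 UMIs, 47.4% were in the HLA class II cluster, against 10.4% of shallower cells, and SPARC had 549 CPM in the deep and 146 CPM in the shallow cells while SMOC1 had 37.3 and 178 CPM. With cells thinned to 10000 UMIs, a step that leaves out 4676 of the 9389 cells of day 160, the log2 ratio of SPARC was 0.12, that of SPARCL1 0.69 and that of SMOC1 3.03. The members called higher were then SMOC1 and SPOCK1 in place of SMOC1 and SPARCL1. With a mitochondrial limit of 10%, the log2 ratio of SPARCL1 was 2.26. SPARCL1 in the HLA class II cluster had 110 CPM at day 160 and 578 CPM at day 220 in cells of at most 10% mitochondrial UMIs, and 158 and 368 CPM in cells above that, so it was higher at day 220 on both sides of that limit. CLMAT3, an annotated antisense gene over part of SPARC, had 0 and 32 UMIs. FSTL1 overlaps the annotated pseudogene AC063952.1 on the opposite strand and MIR198 on its own. The sources used here do not say whether counting used strand, so reads of these overlaps cannot be told apart.

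Related genes were read from 7 lists chosen by function. Each count below stands beside 23.0% of all counted genes at least 2-fold higher and 5.09% lower, or 10.5% and 7.49% after centring on intron length. The follistatin-domain relatives had 4 of 12 counted genes, 1 at least 2-fold higher, 0 lower and a median log2 ratio of -0.21, beside a median of 0.14 over all counted genes. After centring 1 was higher, 2 were lower and the median was -0.44. The transmembrane protein gene TMEFF2 went from 6.78 to 165 CPM, a log2 ratio of 4.41, and HTRA1, which encodes a secreted protease, from 240 to 150 CPM, at -0.68. Of the other matricellular genes 9 of 19 were counted, 3 higher and 1 lower, with a median of 0.62. After centring 4 were higher, 0 lower and the median was 0.95. TNC, which encodes tenascin-C of the germinal zones, went from 96.9 to 508 CPM (2.38), CCN1, which encodes a cell-adhesion factor, had 108 and 50.5 CPM (-1.08), and the galectin genes LGALS1 and LGALS3 had 790 and 993 CPM (0.33) and 768 and 388 CPM (-0.98).

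Collagens and basement membrane genes, whose products SPARC binds, had 8 of 16 counted genes at least 2-fold higher and 0 lower. Their median was 1.07, and after centring on intron length 5 were higher, 1 lower and the median was 0.26. COL4A1 and COL4A2 had log2 ratios of 1.29 and 1.39, LAMB1 2.27 and COL6A1 0.01, and COL4A1 and COL4A2 were at 0.00 and 0.10 after centring. Of 5 counted receptor genes for members of the family, 3 were at least 2-fold higher and 1 was lower, and their median was 1.11. After centring 1 was higher, 1 lower and the median was 0.35. ITGB1 and ITGAV, which encode integrin chains, had 1.11 and 1.92, and VCAM1, a cell-surface protein that SPARC binds, had 82.4 and 15.1 CPM (-2.37).

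The BMP pathway, which SMOC proteins act on, had 5 of 15 counted genes at least 2-fold higher and 1 lower. Its median was 0.33, and after centring 1 was higher, 2 were lower and the median was -0.13. The receptor genes BMPR1A and BMPR2 had log2 ratios of 2.33 and 1.69, ID4 went from 189 to 128 CPM (-0.56), and ID3, a direct target of BMP signalling, had 19.7 and 6.08 CPM (-1.55). Pericellular proteases and their inhibitors had 7 of 15 higher and 0 lower, with a median of 0.93. After centring 6 were higher, 0 lower and the median was 0.50. The log2 ratio of MMP16 was 3.34, that of TIMP2 0.93 and that of TIMP3 -0.44, while TIMP1 had 159 CPM at both days. Synapse-organising factors and partners, among them the neurexins and neuroligins that hevin has been described to bridge, had 7 of 13 higher and 0 lower, with a median of 1.33. After centring 5 were higher, 2 lower and the median was 0.81. NLGN1 and NRXN3 had log2 ratios of 4.51 and 4.38, or 1.92 and 1.80 after centring, and the secreted factor gene CHRDL1 had -0.79.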

How the data were processed

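The deposited files hold raw UMI counts per gene and cell barcode, which the authors produced in Cell Ranger, whose version is 7.0.1 per the file headers. The submitters' processing notes list Cell Ranger 7, Seurat 4 and hg38. The sources used here do not give intron counting, use of strand, annotation release or cell calling. Barcodes with at least 1000 genes and at most 15% mitochondrial UMIs passed, 9972 of 13018 at day 160 and 524 of 676 at day 220, and 583 and 6 doublets marked by Scrublet (scanpy 1.11.5, expected rate 0.06) were left out. UMIs were summed over cells and scaled to CPM. Ratios are log2 with a pseudocount of 1 CPM, and genes with at least 10 CPM in 1 library were counted. A limit of 3 UMIs is 0.0261 CPM at day 160 and 0.118 CPM at day 220. The time-point label gave each library its group. With 1 library per day no test was run and no p-value computed.

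Each library was clustered alone (10000 counts per cell, log transformed, 2000 variable genes, 30 principal components, 15 neighbours, Leiden resolution 0.5, leidenalg 0.10.2). A cluster's leading genes are those with the highest ratio of CPM + 10 over all other cells. Gene positions and intron lengths come from GENCODE 29 on GRCh38, matched by Ensembl identifier. Centring takes off the median ratio of counted genes in the same of 20 bins of intron length. Ratios and intervals were run on simulated Poisson counts, which checks the computation only. Those counts hold no spread between cells or cultures, so they cannot show how well the intervals suit these data. From each related list the text names the 2 genes with the highest mean CPM and, of counted genes, those with the highest and lowest ratio. The 3 genes most like a member were named by the highest rho over cells and r over clusters, except 1 gene that is not reported here. Alternatives covered doublets, barcode filters, pseudocount, CPM total, cell weighting, thinning, intron centring, scaling, expression minimum and clustering. The members and all lists were chosen with earlier results of these data known. A planned comparison of member proteins was not run, as no protein sequences were used here.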

Additional observations from a re-analysis of the deposited data

Results flagged for a closer look

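SPARCL1 was flagged because its day 220 over day 160 ratio went in opposite directions in different cell groups. It was 3.35 in the HLA class II cluster, 0.473 in the cycling-like group and 0.492 in the contractile mesenchymal-like cluster, each from 1 library per day, and the difference between the groups was not tested. The cycling-like value rests on 28 UMIs in 31 cells at day 220.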

How the results depend on the processing

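Settings were changed 1 at a time. The count of members at least 2-fold higher at day 220 was 2 (SPARCL1 and SMOC1) and became 0 after centring on intron length. It stayed 2 with cells thinned to 10000 UMIs, but as SMOC1 and SPOCK1. With no minimum CPM it was 3, and the count at least 2-fold lower went from 0 to 1, SMOC2. Of all genes 2334 were higher and 517 lower. After centring 1065 were higher, with no minimum 4073, and with a minimum of 50 CPM 1017 were higher and 216 lower. Under other clusterings the highest SMOC1 cluster of day 220 ranged from 492 to 945 CPM. The SPOCK1 ratio reversed to -1.36 after centring on genes that, unlike SPOCK1, passed the minimum of 10 CPM. Over 13 settings the log2 ratio ranged from 0.12 to 0.79 for SPARC, from 0.69 to 2.26 for SPARCL1, the highest with a mitochondrial limit of 10%, and from 0.71 to 3.03 for SMOC1. SMOC2 stayed below 0, from -3.87 to -0.56, and FSTL1, SPOCK2 and SPOCK3 changed sign in 2, 4 and 3 settings. Depth limits SPOCK3 and the day 220 value of SMOC2, with 3 UMIs or fewer. No paired analysis was possible because each day has 1 library and the labels give no replicate numbers.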
